A study of Mus musculus with 12 samples.

Results

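The proteasome subunit genes are the protein-coding genes whose symbol is Psma, Psmb, Psmc, Psmd, Psme, Psmf or Psmg followed by a number. Among the 37991 gene identifiers in the count table, 50 identifiers with 48 symbols met this rule, and 45 of the 48 symbols had enough counts to be tested. RNA came from purified splenic resting B cells of mice aged 8 weeks, taken at rest (0 h) or 3 h after the addition of anti-IgM and IL-4, ligands that engage the B cell receptor and the IL-4 receptor. The Runx1 c-k/o mice (CD23iCre/Runx1 ck/o) carried a Runx1 allele with loxP sites around exon 4, and the control mice (CD23-iCre, called Cre-only) carried the Cre transgene with no floxed Runx1 described. Both genotypes thus carried Cd23-Cre, a transgene first expressed at the transitional stage of B cell development. The 4 groups (Cre-only and Runx1 c-k/o, each at rest and at 3 h) held 3 biological replicates each, 12 libraries in all. No group was kept for 3 h without the ligands. Activation below therefore means 3 h against rest, and effects of the ligands and of 3 h in culture cannot be told apart.

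The proteasome is the protease that degrades most ubiquitin-tagged proteins of the cytosol and nucleus. Its barrel-shaped 20S core is made of alpha rings, which gate the entrance, and beta rings, which hold the catalytic subunits Psmb5, Psmb6 and Psmb7. Cells of the immune system can build Psmb8, Psmb9 and Psmb10 into new cores in their place, which gives the immunoproteasome and changes the peptides offered to MHC class I. The 19S cap, made of Psmc ATPases and Psmd subunits, binds and unfolds tagged proteins, the Psme proteins form other activator caps, Psmf1 inhibits the core, and Psmg proteins are chaperones that assemble it. In many cells the transcription factor NRF1 (gene Nfe2l1) raises proteasome genes together when proteasome activity falls short.

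The upstream sequences of 4 genes are shown because the results below turn on them: Psmb5 and Psmb6 rose with activation, Psmb10 fell, and Psme3 had the smallest adjusted p of all proteasome genes. Each is the 250 bases before the RefSeq transcription start, 5′ to 3′ on the strand of the gene. The sequences are from the RefSeq promoter table (GRCm38.p6), and each matched mm9 (NCBIM37) exactly once: Psmb5 at chr14:55236833-55237082 on the minus strand, Psmb6 at chr11:70338609-70338858 on the plus strand, Psmb10 at chr8:108462293-108462542 on the minus strand and Psme3 at chr11:101177277-101177526 on the plus strand. In the mm9 annotation they lay before the first annotated exon of their gene, except that the last 19 bases of the Psmb5 sequence fell in its first exon. Capitals mark matches, on either strand, to the core of the antioxidant response element bound by NRF1 (TGACNNNGC), to the RUNX core (TGTGGT), to the E-box (CACGTG) or to the NF-Y box (CCAAT). None of these matches overlap.
Psmb5: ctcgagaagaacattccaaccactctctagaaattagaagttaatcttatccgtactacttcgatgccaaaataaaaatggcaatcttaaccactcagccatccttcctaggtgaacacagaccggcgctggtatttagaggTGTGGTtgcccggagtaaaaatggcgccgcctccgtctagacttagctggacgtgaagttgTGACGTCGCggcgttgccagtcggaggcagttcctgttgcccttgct
Psmb6: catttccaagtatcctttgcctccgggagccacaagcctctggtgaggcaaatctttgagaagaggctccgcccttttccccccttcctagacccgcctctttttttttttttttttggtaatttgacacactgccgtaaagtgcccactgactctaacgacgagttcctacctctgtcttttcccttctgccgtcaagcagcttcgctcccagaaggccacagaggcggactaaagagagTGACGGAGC
Psmb10: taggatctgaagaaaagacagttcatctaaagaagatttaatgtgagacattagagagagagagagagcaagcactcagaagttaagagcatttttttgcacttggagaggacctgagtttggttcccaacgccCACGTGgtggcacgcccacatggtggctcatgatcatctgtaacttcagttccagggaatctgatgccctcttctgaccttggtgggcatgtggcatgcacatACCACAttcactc
Psme3: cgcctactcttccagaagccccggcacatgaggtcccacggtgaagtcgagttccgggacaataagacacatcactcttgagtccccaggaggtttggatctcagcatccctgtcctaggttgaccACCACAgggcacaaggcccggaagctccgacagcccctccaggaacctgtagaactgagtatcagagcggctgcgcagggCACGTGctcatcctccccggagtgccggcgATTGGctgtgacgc
A RUNX core was present in 3 of these sequences, those of Psmb5, Psmb10 and Psme3. Upstream windows were found for 40 of the 48 symbols, and the share of these that held a motif was compared with the share of all 32851 windows in the table. The antioxidant response element core was found for 12.5% of the proteasome genes and in 10.2% of all windows, and the RUNX core for 15.0% and in 14.0%. The E-box was found for 4 of the 40 and in 6.0% of all windows, the NF-Y box for 35.0% and in 33.8%, and the interferon response core (GAAANNGAA) for 7.5% and in 7.1%. Some genes had more than 1 window, and a match in any of them counted. By window, the unit of the background, 43 proteasome windows held the antioxidant response element core in 11.6% and the RUNX core in 14.0%. The E-box was in 9.3% of these windows, the NF-Y box in 32.6% and the interferon response core in 7.0%, so the shares lay near those of all windows. These are letter matches in short windows, and they describe the sequence only.

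Library totals ranged from 14442251 to 23641552 counts, and 3 counts, the smallest level read here, came to at most 0.208 CPM. CPM, the counts scaled to a common library total, are normalized below to the library size after TMM normalization, so a value is a share of the RNA of that library and not an amount per cell. The table held 0 spike-in rows, and fewer cells of a type and less RNA per cell cannot be told apart in bulk RNA. B cell markers were abundant: Cd79a, a signalling chain of the B cell receptor, lay between 1873 and 2406 CPM at rest. Cd3e of T cells and Ncr1 of NK cells stayed at or under 0.469 CPM in all 12 libraries. Runx1 counts were no lower in the Runx1 c-k/o group (95.7 to 102.7 CPM at rest) than in Cre-only cells (81.8 to 86.7 CPM). At 3 h they were called higher there (47.3 to 74.5 against 34.9 to 38.5 CPM, log2 fold change 0.80). Counts over the whole gene do not check the loss of 1 exon. The study reported by Western blot that RUNX1 protein was absent from mature resting B cells of the c-k/o mice.

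A pair of Runx1 c-k/o libraries stood apart from their replicates in the proteasome genes, as the plot of libraries shows. Replicate 2 at rest was the highest of its group in 44 of the 45 tested genes, and its median proteasome gene lay 1.42-fold above the mean of the other libraries of the group. Replicate 1 at 3 h was the highest in 43 of 45, with a median ratio of 1.52. Over all tested genes these ratios were 1.06 and 0.989, and in the 6 Cre-only libraries the median ratio of the proteasome genes lay between 0.948 and 1.02. Cytosolic ribosomal protein genes were raised in the same libraries, 1.35-fold and 1.70-fold, and genes with the longest exons (upper tercile) were low, at 0.943 and 0.832. Across the 45 proteasome genes the excess in replicate 1 at 3 h was larger for genes with short exons (Pearson r = -0.68 with log2 exon length, a description over genes that share libraries). Some other genes moved with them too. Egr2, an early gene of B cell activation, stood at 74.6, 170.3 and 81.2 CPM in replicates 1, 2 and 3 of Runx1 c-k/o at rest, the myeloid gene Lyz2 at 18.8, 34.0 and 17.1 CPM and Igj, the joining chain of plasma cells, at 73.3, 262 and 176 CPM, each highest in replicate 2. Myc, another early gene, stood at 293, 500.2 and 343 CPM in these libraries and at 1475, 1119.7 and 1183 CPM at 3 h. It was highest in the libraries that stood apart. Egr2 and Myc come from a list of 5 early genes that also holds Egr1, Cd69 and Nr4a1. Of these 5, 2 were called higher and 2 lower at 3 h in each genotype (over all genes 38.6% and 36.4% in Cre-only cells, 37.7% and 36.6% in Runx1 c-k/o cells). In the 3 Runx1 c-k/o libraries at 3 h Egr2 stood at 912, 795 and 838 CPM, Lyz2 at 3.54, 6.76 and 2.24 CPM and Igj at 52.3, 125 and 85.7 CPM, where replicate 1 was the highest for Egr2 and not for Lyz2 or Igj. The part of these in the proteasome levels was not tested.

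**Figure D1:**
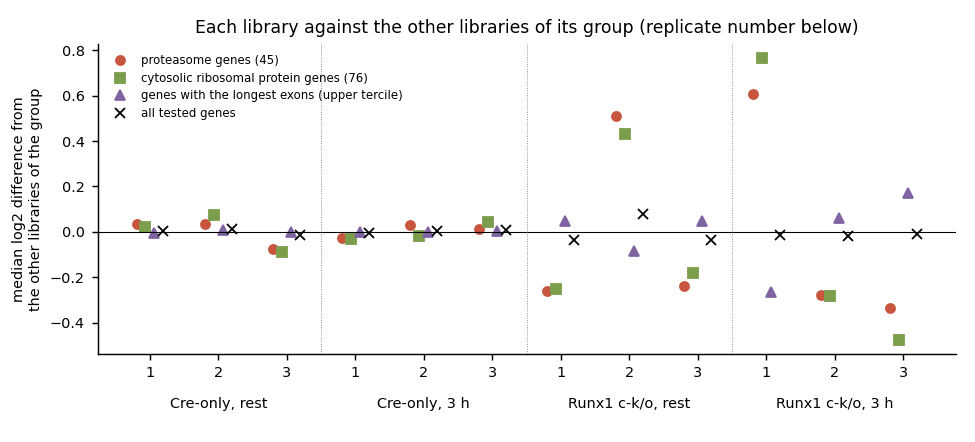
Median log2 difference between each library and the mean of the other libraries of its group (y axis), for the 12 libraries by group and replicate (x axis) and for 4 sets of genes (symbols). Replicate 2 of Runx1 c-k/o at rest and replicate 1 at 3 h lie high for proteasome and ribosomal protein genes, with median log2 differences of 0.51 and 0.61 for the proteasome genes.

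Of the 48 symbols, 3 gave no testable level. Psma8, an alpha subunit of testis, had at most 4 counts in any library, and Psmb11, the catalytic subunit of the thymus, had at most 8. Psmb9, the immunoproteasome partner of Psmb8, was listed at 0 in all 12 libraries under both of its identifiers, ENSMUSG00000024337 and ENSMUSG00000092299. These annotate the same place on the same strand (chromosome 17, mm9 34318932 to 34324709), with 100.0% and 99.7% of their exon bases shared, and the treatment of reads that overlap more than 1 gene is not given in the sources used here. No level of Psmb9 can therefore be read. Psmd14 had a second identifier inside the first, also at 0, and is described by the first. Exons of some members also overlapped a gene on the other strand, by at most 8.2% of their length (Psmc3), and the strand setting of the counting is not given either. On the same strand, Psmd1 shared 8.1% of its exon bases with the protein-coding gene Armc9.

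At rest, Cre-only cells held proteasome mRNA at 0.299% to 0.314% of all counts. Per kilobase of exon, the highest levels were those of Psmb1, a structural beta subunit (101 CPM per kb), Psme1, a subunit of the PA28 activator cap (72.7 CPM per kb), and Psmd8, a 19S lid subunit (65.8 CPM per kb). The lowest were the inhibitor Psmf1 (4.67 CPM per kb), the 19S assembly chaperone Psmd9 (4.71 CPM per kb) and the 20S assembly chaperone Psmg1 (5.47 CPM per kb). These ranks depend on the annotated exon length: Psmd9 stood at 21.5 CPM over 4562 bases and Psmg1 at 7.35 CPM over 1344 bases. On the same scale the immunoproteasome subunit Psmb8 stood above the constitutive subunit it replaces, Psmb5: the ratio of their levels per kb was 1.49, 1.56 and 1.77 in the 3 resting Cre-only libraries. At 3 h this ratio was 0.271, 0.266 and 0.281, so Psmb5 then stood above Psmb8 in every library.

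Nearly the whole family rose with activation in Cre-only cells. By 3 h the share of all counts on proteasome genes was 0.605% to 0.611%, about double that at rest. Of the 45 tested genes, 40 rose (background: 38.6% of the 13538 tested genes) and 2 fell, Psmb8 and Psmb10 (background: 36.4%), at an edgeR adjusted p under 0.05. The median log2 fold change of the 45 was 1.09, beside 0.03 over all tested genes. In 43 of the 45 genes all 3 activated libraries lay above all 3 resting ones, which held for 43.8% of all tested genes, and in 2 all 3 lay below (40.6% of all). Psmb1, Psmd9 and Psme1 did not pass the test, with log2 fold changes of 0.17, 0.21 and 0.25. In the fit of only the Cre-only groups, 44 of the 45 were called in either direction, beside 10908 of 12986 tested genes, and Psmb1 and Psme1 were among them.

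Among the Runx1 c-k/o libraries, the proteasome genes took 0.304%, 0.402% and 0.304% of counts at rest and 0.805%, 0.629% and 0.609% at 3 h, the high values being those of the libraries that stood apart. Of the 45 tested genes, 41 rose (background: 37.7%) and 2 fell, again Psmb8 and Psmb10 (background: 36.6%). The median log2 fold change was 1.17, beside 0.00 over all tested genes. Psmb1 and Psme4 did not pass the test. In the fit of only the Runx1 c-k/o groups, 40 of the 45 were called in either direction, beside 8676 of 12843 tested genes. The calls of Psmd8, Psmd9 and Psme1 were lost there (edgeR adjusted p = 0.123, 0.113 and 0.116). The times did not overlap in 38 genes that were higher (36.5% of all tested genes) and in 2 that were lower (36.3%). In a fit without replicate 2 at rest and replicate 1 at 3 h, an alternative chosen after the data were seen, the median was 1.07 and 43 genes were called (background: 76.6%). The plot of changes by role shows both genotypes side by side.

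**Figure D2:**
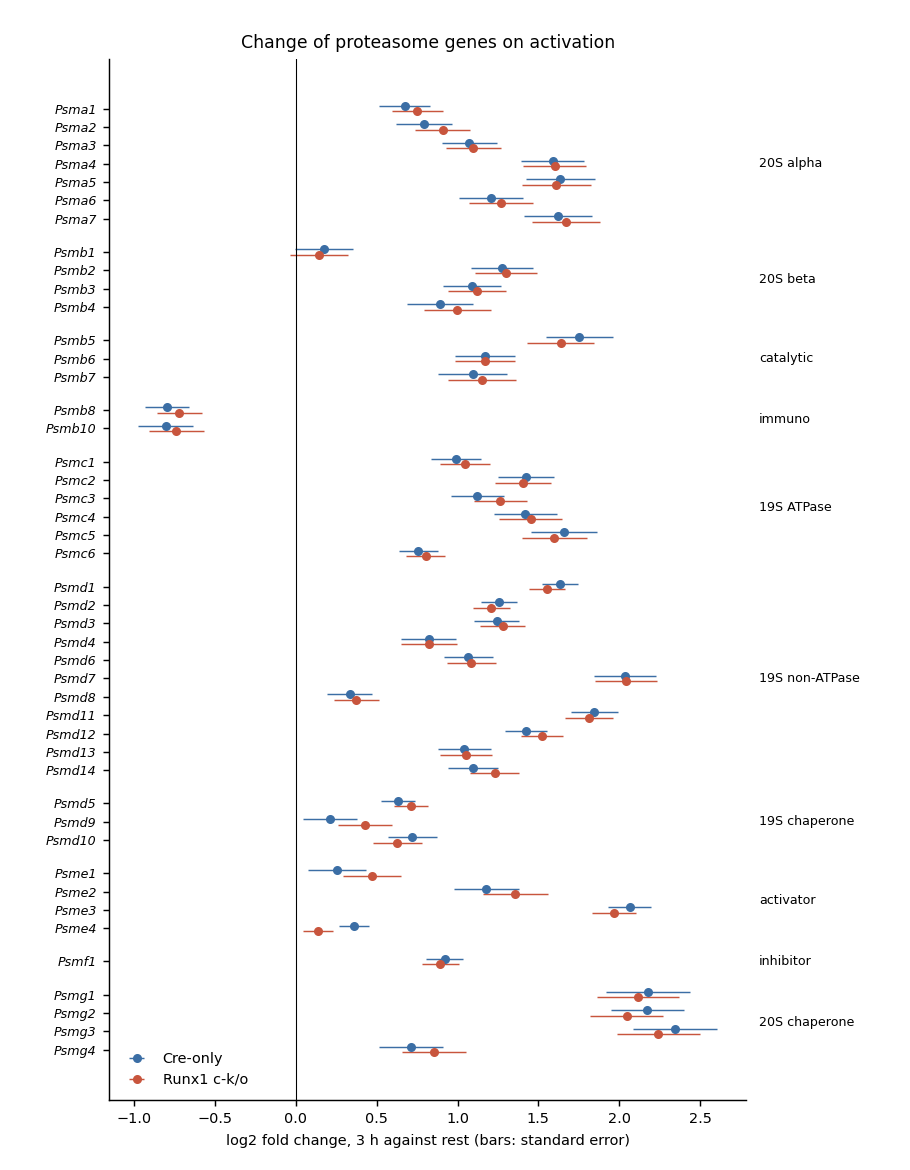
Log2 fold change from rest to 3 h (x axis) of the 45 tested proteasome genes, grouped by role (y axis), in Cre-only (blue) and Runx1 c-k/o cells (red). Points are edgeR estimates and bars standard errors. All lie above 0 except Psmb8 and Psmb10, and the chaperones Psmg1 to Psmg3, Psme3 and Psmd7 lie farthest to the right.

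The catalytic subunits moved in opposite directions with activation. Psmb5, the subunit with chymotrypsin-like activity (chromosome 14, mm9 55232644 to 55236851), stood at 27.2, 26.8 and 22.4 CPM in the 3 resting Cre-only libraries and at 87.0, 86.4 and 83.9 CPM at 3 h. Its Runx1 c-k/o values were 28.1, 43.0 and 26.3 CPM and 136, 85.4 and 82.3 CPM. The groups did not overlap between the times in either genotype. The level rose 3.37-fold in Cre-only cells (log2 fold change 1.75, SE 0.21, edgeR adjusted p = 9.63e-06) and 3.11-fold in Runx1 c-k/o cells (log2 fold change 1.64, SE 0.21, edgeR adjusted p = 1.7e-05). A microRNA gene, Mir686, overlaps 11.8% of its exon bases on the same strand.

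Psmb8, which takes the place of Psmb5 in the immunoproteasome (chromosome 17, mm9 34334666 to 34338399), moved the other way. Its level was 121, 124 and 117 CPM in resting and 69.9, 68.3 and 70.0 CPM in activated Cre-only libraries, and 130.4, 150.1 and 124 CPM and 104, 76.2 and 65.5 CPM in the Runx1 c-k/o libraries. All activated libraries lay below all resting ones. The level fell 1.74-fold in Cre-only cells (log2 fold change -0.80, SE 0.14, edgeR adjusted p = 0.000216) and 1.65-fold in Runx1 c-k/o cells (log2 fold change -0.72, SE 0.14, edgeR adjusted p = 0.000488).

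Psmb7 and Psmb10 showed the same opposition. Psmb7, the subunit with trypsin-like activity, stood at 55.9, 57.9 and 50.1 CPM at rest and 117, 118 and 115 CPM at 3 h in Cre-only cells. Its levels were 52.0, 84.3 and 60.4 CPM and 203, 118 and 116 CPM in the Runx1 c-k/o libraries. Every activated library lay above every resting one, with a rise of 2.13-fold in Cre-only cells (log2 fold change 1.09, SE 0.21, edgeR adjusted p = 0.000501) and 2.22-fold in Runx1 c-k/o cells (log2 fold change 1.15, SE 0.21, edgeR adjusted p = 0.00034). Psmb10, which replaces it, stood at 66.3, 67.2 and 66.5 CPM at rest and 41.3, 36.5 and 36.5 CPM at 3 h in Cre-only cells. The Runx1 c-k/o libraries held it at 67.5, 84.8 and 64.6 CPM and 57.7, 38.2 and 34.0 CPM. All activated libraries were lower here than all resting libraries, and the fall was 1.75-fold (log2 fold change -0.81, SE 0.17, edgeR adjusted p = 0.000921) and 1.67-fold (log2 fold change -0.74, SE 0.17, edgeR adjusted p = 0.00174). The ratio of Psmb10 to Psmb7 per kb went from between 1.11 and 1.27 to between 0.294 and 0.338 in Cre-only cells, while the Runx1 c-k/o ratios went from between 0.962 and 1.24 to between 0.272 and 0.309.

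Psmb6, the caspase-like subunit that Psmb9 can replace, rose as well. It stood at 61.8, 63.1 and 56.2 CPM at rest and 141, 127 and 139 CPM at 3 h in Cre-only cells, and at 63.2, 90.7 and 63.4 CPM and 218, 138 and 133 CPM in Runx1 c-k/o cells. The times did not overlap, and the rise was 2.25-fold (log2 fold change 1.17, SE 0.19, edgeR adjusted p = 0.000106) and 2.25-fold (log2 fold change 1.17, SE 0.19, edgeR adjusted p = 0.000108). Its partner Psmb9 could not be read.

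**Figure D3:**
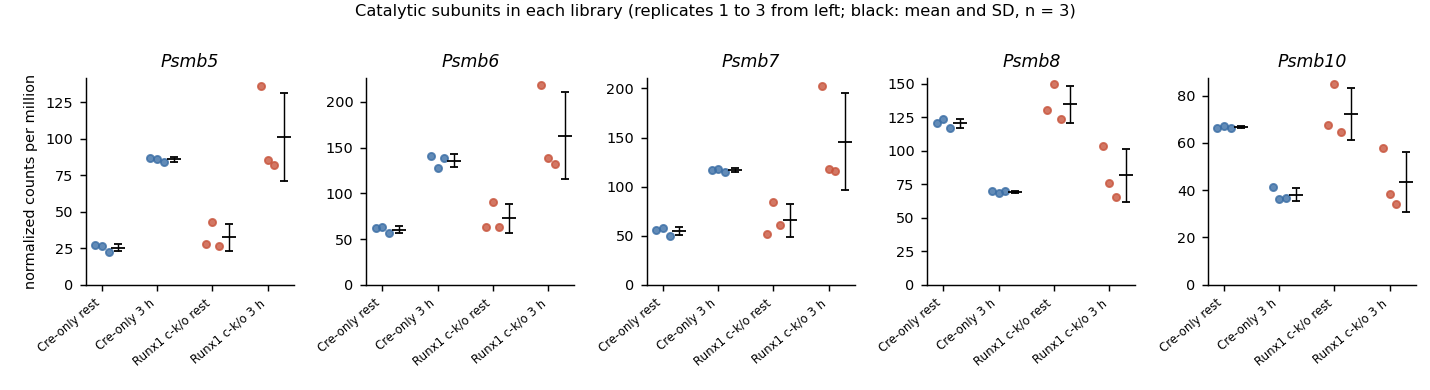
Normalized CPM (y axis, from 0) of Psmb5, Psmb6, Psmb7, Psmb8 and Psmb10 in each library of the 4 groups (x axis), replicates 1 to 3 from left to right, with the mean and SD of 3 libraries in black. The constitutive subunits Psmb5, Psmb6 and Psmb7 are higher at 3 h and Psmb8 and Psmb10 lower, in both genotypes, and replicate 2 at rest and replicate 1 at 3 h of Runx1 c-k/o are the highest points of their groups.

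The other subunits of the 20S core rose together, with Psmb1 as the exception. All 7 tested alpha subunits rose in both genotypes, by log2 fold changes of 0.67 (Psma1) to 1.64 (Psma5) in Cre-only cells and 0.75 (Psma1) to 1.67 (Psma7) in Runx1 c-k/o cells. Of the 4 beta subunits without a catalytic site, Psmb2, Psmb3 and Psmb4 rose in both, by 0.89 to 1.30 on the log2 scale. Psmb1 stood at 106, 107 and 100.2 CPM in resting and 114, 121 and 118 CPM in activated Cre-only libraries. Its activated libraries lay just above the resting ones, and the difference did not pass the test (log2 fold change 0.17, SE 0.18, edgeR adjusted p = 0.394). It passed, at 0.13, in the fit without the libraries that stood apart (edgeR adjusted p = 0.0348). In the fit of only the Cre-only groups it passed too (log2 fold change 0.10, edgeR adjusted p = 0.0481). In Runx1 c-k/o cells Psmb1 stood at 115, 146 and 106 CPM and 184, 113 and 108 CPM, and the times overlapped.

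All 6 ATPases of the 19S base, which unfold substrates and push them into the core, rose in both genotypes, between 0.76 (Psmc6) and 1.66 (Psmc5) on the log2 scale in Cre-only cells. So did all 11 tested non-ATPase subunits, and 4 of the 5 genes with the smallest adjusted p in each genotype were among these. Psmd1, the base subunit that serves as a scaffold, stood at 84.5, 82.7 and 77.4 CPM at rest and 244, 259.6 and 254 CPM at 3 h in Cre-only cells, and at 77.8, 104 and 76.9 CPM and 266, 239.6 and 255 CPM in Runx1 c-k/o cells. The times did not overlap in either genotype, with a rise of 3.10-fold (log2 fold change 1.63, SE 0.11, edgeR adjusted p = 1.01e-07) and 2.94-fold (log2 fold change 1.56, SE 0.11, edgeR adjusted p = 1.74e-07). Psmd2, the other large base subunit, stood at 144, 141 and 139 CPM at rest and 334, 339 and 339 CPM at 3 h in Cre-only cells, and at 129, 177 and 138 CPM and 374, 318 and 333 CPM in Runx1 c-k/o cells. It was the most abundant of the 19S genes by CPM and rose 2.39-fold (log2 fold change 1.26, SE 0.11, edgeR adjusted p = 8.18e-07) and 2.31-fold (log2 fold change 1.21, SE 0.11, edgeR adjusted p = 1.24e-06).

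The lid subunits Psmd11 and Psmd12 rose as well. Psmd11 stood at 62.3, 60.6 and 59.8 CPM at rest and 210.4, 227 and 220.2 CPM at 3 h in Cre-only cells, and at 54.4, 83.2 and 57.5 CPM and 264, 199 and 222 CPM in Runx1 c-k/o cells. Its times did not overlap, and it rose 3.60-fold (log2 fold change 1.85, SE 0.15, edgeR adjusted p = 3.46e-07) and 3.51-fold (log2 fold change 1.81, SE 0.15, edgeR adjusted p = 4.79e-07). Psmd12 stood at 47.8, 46.4 and 45.5 CPM and 121, 129.9 and 124 CPM in Cre-only cells and at 48.1, 60.5 and 46.8 CPM and 182, 132 and 133 CPM in Runx1 c-k/o cells. It rose 2.68-fold (log2 fold change 1.42, SE 0.13, edgeR adjusted p = 1.06e-06) and 2.88-fold (log2 fold change 1.52, SE 0.13, edgeR adjusted p = 7.04e-07). The largest rise of a 19S subunit was that of Psmd7, a partner of the lid deubiquitinase Psmd14, at 4.09-fold and 4.12-fold. The smallest was that of Psmd8 (log2 fold change 0.33 and 0.37), whose call in Cre-only cells, at an edgeR adjusted p of 0.0457, was lost when any 1 library of the comparison was left out (adjusted p 0.0785 to 0.102) and with the replicate number as a block (0.0775 within genotypes). The Cre-only call was also lost in DESeq2 (adjusted p = 0.147), with its size factors in edgeR (0.137), with library size alone (0.11) and without a filter (0.0751). In Runx1 c-k/o cells the call of Psmd8 was lost without replicate 1 at 3 h (log2 fold change 0.16, adjusted p = 0.0915) or without replicate 1 or 3 at rest. Library size alone ended it there too (adjusted p = 0.0623).

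The largest rises of the family were those of the core assembly chaperones Psmg1, Psmg2 and Psmg3. Psmg1 and Psmg2 form one heterodimer that starts the alpha ring, and Psmg3 and Psmg4 form another. Psmg3 stood at 4.34, 6.21 and 4.77 CPM at rest and 25.4, 26.9 and 25.4 CPM at 3 h in Cre-only cells, and at 5.97, 9.89 and 5.51 CPM and 47.3, 27.6 and 26.2 CPM in Runx1 c-k/o cells. It went from among the lowest levels of the family to the range of the 19S genes per kb, a rise of 5.08-fold and 4.73-fold. Psmg1 rose 4.52-fold and 4.34-fold, and Psmg2 rose 4.51-fold and 4.13-fold. Psmg4, the partner of Psmg3, rose less, 1.64-fold and 1.81-fold. All 4 passed the test in both genotypes (largest edgeR adjusted p 0.0061). The chaperones of the 19S base changed less: Psmd5 and Psmd10 rose in both genotypes, by 0.63 to 0.72 on the log2 scale. Psmd9 did not pass in Cre-only cells and did in Runx1 c-k/o cells (edgeR adjusted p = 0.0367), at a log2 fold change of 0.43, and not in the fit without both libraries that stood apart (0.25, adjusted p = 0.0993). The call of Psmd9 was also lost without replicate 1 at 3 h (0.20, adjusted p = 0.195), replicate 2 at 3 h (0.45, adjusted p = 0.0561), replicate 1 at rest (0.40, adjusted p = 0.0945) or replicate 3 at rest (0.39, adjusted p = 0.0996), and in DESeq2 (0.40, adjusted p = 0.057).

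The activator caps spanned a wide range of changes. Psme3, the PA28 gamma subunit of a nuclear cap, stood at 137, 136 and 133 CPM at rest and 556, 583 and 556 CPM at 3 h in Cre-only cells, and at 126, 187 and 126 CPM and 582, 540.1 and 594 CPM in Runx1 c-k/o cells. It was the highest of the family per kb at 3 h (192 CPM per kb in Cre-only cells), and it rose 4.18-fold (log2 fold change 2.06, SE 0.14, edgeR adjusted p = 8.4e-08) and 3.92-fold (log2 fold change 1.97, SE 0.14, edgeR adjusted p = 1.43e-07). The PA28 alpha and beta subunits, which form the interferon-responsive cap together, had unlike estimates, a difference that was not tested. Psme1 (alpha) stood at 162, 172 and 148 CPM at rest and 194, 189 and 192 CPM at 3 h in Cre-only cells, and at 162, 209.7 and 152 CPM and 327, 199 and 200.5 CPM in Runx1 c-k/o cells. Psme2 (beta) stood at 117, 110.4 and 101 CPM and 245, 248 and 250.4 CPM in Cre-only cells and at 108, 157 and 107 CPM and 441, 265 and 249.5 CPM in Runx1 c-k/o cells. Psme2 rose 2.26-fold (log2 fold change 1.18, SE 0.20, edgeR adjusted p = 0.000199) and 2.56-fold (log2 fold change 1.36, SE 0.20, edgeR adjusted p = 6.63e-05).

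For Psme1 the difference in Cre-only cells did not pass the test (log2 fold change 0.25, SE 0.18, edgeR adjusted p = 0.215). It passed without the libraries that stood apart (log2 fold change 0.21, adjusted p = 0.00266) and with only the Cre-only groups (0.19, adjusted p = 0.00316). In Runx1 c-k/o cells it did (log2 fold change 0.47, SE 0.18, edgeR adjusted p = 0.0305), though the times overlapped. It did not pass there when replicate 1 or 3 at rest or replicate 1 at 3 h was left out (adjusted p 0.0926 to 0.12). The call was also lost with library size alone (0.0556), at least 10 counts in every sample (0.0658), only the groups compared (0.116) and the block within genotypes (0.0632). The large cap protein Psme4 stood at 100.3, 108 and 107 CPM at rest and 131, 135 and 137 CPM at 3 h in Cre-only cells, a rise of 1.28-fold (log2 fold change 0.36, SE 0.09, edgeR adjusted p = 0.00378). Psme4 lost this call with at least 10 counts in every sample (0.20, adjusted p = 0.0781) and with library size alone (0.23, adjusted p = 0.0771). In Runx1 c-k/o cells it stood at 104, 93.7 and 104 CPM and 97.3, 111 and 124 CPM, and the times overlapped (log2 fold change 0.14, SE 0.09, edgeR adjusted p = 0.191). Without replicate 1 at 3 h, its lowest value, Psme4 passed there too (log2 fold change 0.21, adjusted p = 0.0369). The inhibitor Psmf1 stood at 30.0, 33.4 and 26.8 CPM and 58.9, 53.5 and 58.2 CPM in Cre-only cells and rose 1.89-fold, and it rose 1.86-fold in Runx1 c-k/o cells.

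Without both libraries that stood apart, the log2 fold changes on activation in Runx1 c-k/o cells were 1.59 for Psmb5, 1.07 for Psmb6, 1.04 for Psmb7, -0.87 for Psmb8 and -0.90 for Psmb10. Among the 19S genes they were 1.65 for Psmd1, 1.26 for Psmd2, 1.89 for Psmd11, 1.45 for Psmd12, 2.10 for Psmd7 and 0.26 for Psmd8. Psme1, Psme2, Psme3 and Psme4 were at 0.32, 1.23, 2.15 and 0.15, Psmf1 at 0.86, and Psmg1, Psmg2, Psmg3 and Psmg4 at 2.13, 2.05, 2.20 and 0.71. All of these passed the test there, with the largest edgeR adjusted p, 0.0436, for Psme4. Psmb1 was at -0.02 (edgeR adjusted p = 0.775).

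The rises were smaller with 1 RUVs factor in the model. With this factor of unwanted variation from RUVs in the edgeR model, after the RUV-seq step in the study's methods, 32 genes rose (background: 35.1% for Cre-only, 33.2% for Runx1 c-k/o) and 5 fell (30.4% in both) in each genotype, and the median log2 fold change was 0.45 for Cre-only and 0.43 for Runx1 c-k/o. In DESeq2 with the same factor, 28 genes rose (30.1%) and 5 fell (31.8%) in Cre-only cells, against 31 (29.1%) and 5 (30.1%) in the c-k/o. This factor lay between 0.284 and 0.312 in the resting and between -0.223 and -0.189 in the activated Cre-only libraries, so it moved with activation itself, and at 0.0453 and -0.627 in the Runx1 c-k/o libraries that stood apart. The fall of Psmb8 and Psmb10 was larger in this model (-1.32 and -1.48 in Cre-only cells) and the rise of Psmb5 smaller (0.93). Psmb1, Psme1 and Psmd8 were then called lower in both genotypes, and Psmb7 was not called (edgeR adjusted p = 0.125 and 0.132). Scaling by library size alone, which moved the median of all genes to -0.10 for Cre-only and -0.11 for Runx1 c-k/o, left the medians of the proteasome genes at 0.97 and 1.04.

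Markers of B cells and of other cell types also moved with activation. The summed level of 6 myeloid markers went from between 196 and 238 CPM at rest to between 11.2 and 16.6 CPM in Cre-only cells, mostly Csf1r, with 4 of the 6 called lower and S100a8 at most at 1.06 CPM. The 6 T cell markers went from between 36.0 and 40.8 CPM to between 64.4 and 70.0 CPM, nearly all of it Lck, with Cd3e, Cd3d and Cd3g at most at 0.819 CPM in any library and at 0 in some. The 3 plasma cell markers went from between 133 and 201 CPM to between 59.1 and 98.8 CPM, and the 3 platelet markers from between 11.4 and 12.8 CPM to between 3.11 and 3.19 CPM. The 4 erythroid markers lay between 36.1 and 253 CPM at rest and between 12.3 and 136 CPM at 3 h in Cre-only cells, ranges that overlap, and between 246 and 410 CPM and between 115 and 203 CPM in Runx1 c-k/o cells, which do not, with 0 of the 4 called in either genotype. The 6 B cell markers went from between 6909 and 7340 CPM to between 2613 and 2813 CPM, with 5 of the 6 called lower. In Runx1 c-k/o cells the myeloid sum went from between 173 and 332 CPM to between 12.1 and 35.0 CPM, the T cell sum from between 30.3 and 43.1 CPM to between 65.4 and 84.6 CPM, the plasma cell sum from between 92.4 and 284 CPM to between 60.8 and 136 CPM, the platelet sum from between 10.5 and 12.6 CPM to between 3.48 and 4.27 CPM and the B cell sum from between 7702 and 7809 CPM to between 2457 and 2770 CPM. The sum of 4 marginal zone markers rose in Cre-only cells from between 1091 and 1405 CPM to between 2285 and 2582 CPM. In Runx1 c-k/o cells it rose from between 1570 and 1705 CPM to between 2597 and 3276 CPM. These sums did not overlap between the genotypes at either time, with 0 of the 4 called. NK cell markers summed to at most 3.81 CPM, and plasmacytoid dendritic cell markers, higher at 3 h, to at most 63.15 CPM. The part of all these markers in the proteasome levels was not tested.

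Most genes that assemble, decorate or assist the proteasome rose. Of 10 partners, 9 rose in Cre-only cells and 8 in Runx1 c-k/o cells, with median log2 fold changes of 1.07 and 1.08. The share of all tested genes called higher was 38.6% in Cre-only cells and 37.7% in Runx1 c-k/o cells. Pomp, the maturation factor of the core, stood at 40.8, 39.8 and 38.2 CPM at rest and 93.5, 89.4 and 87.5 CPM at 3 h in Cre-only cells (log2 fold change 1.19, edgeR adjusted p = 0.000313). The deubiquitinases Usp14 and Uchl5, which sit on the 19S cap, rose by 1.75 and 1.53 on the log2 scale, and the ubiquitin receptor Adrm1 by 1.14. Fbxo7, which binds the inhibitor Psmf1, did not pass the test in either genotype (log2 fold change 0.04 in Cre-only cells).

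Of 7 genes of the NRF1 route, 5 rose and 1 fell in Cre-only cells, and 4 rose and 2 fell in Runx1 c-k/o cells (over all genes 38.6% and 36.4%, and 37.7% and 36.6%). Nfe2l1 itself stood at 106, 116 and 115 CPM at rest and 351, 369 and 346 CPM at 3 h in Cre-only cells (log2 fold change 1.66, edgeR adjusted p = 3.28e-08). It rose likewise in Runx1 c-k/o cells (log2 fold change 1.58, edgeR adjusted p = 5.8e-08). The protease Ddi2, which cuts NRF1, rose by 0.80 and 0.63 on the log2 scale, and the ATPase Vcp, which extracts it from the membrane, by 1.24 and 1.15. Ngly1, which removes its sugars, fell (log2 fold change -0.84, edgeR adjusted p = 1.28e-05 in Cre-only cells). Syvn1, a ubiquitin ligase of the endoplasmic reticulum, was called lower in Runx1 c-k/o cells (log2 fold change -0.18, edgeR adjusted p = 0.0347), where its estimate was close to that in Cre-only cells (-0.15).

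Of 13 ubiquitin genes and delivery factors, 8 rose and 3 fell in Cre-only cells (over all genes 38.6% and 36.4%), and 9 rose and 3 fell in Runx1 c-k/o cells (37.7% and 36.6%). The polyubiquitin gene Ubb stood at 901, 920.4 and 859 CPM at rest and 599, 542 and 494 CPM at 3 h in Cre-only cells, a fall (log2 fold change -0.71, edgeR adjusted p = 0.000464). Of the shuttle factors that carry tagged proteins to the proteasome, Rad23b rose by 1.12 and Ubqln4 by 1.83 on the log2 scale in Cre-only cells, while Ubqln2 fell (log2 fold change -0.25, edgeR adjusted p = 0.0111).

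Of 12 genes of MHC class I presentation, 4 rose and 6 fell in Cre-only cells (over all genes 38.6% and 36.4%), and 4 rose and 4 fell in Runx1 c-k/o cells (37.7% and 36.6%), counts near the shares over all genes. The peptide transporter gene Tap1, which lies beside Psmb9 and Psmb8, stood at 260.4, 279 and 254 CPM at rest and 189, 169 and 179 CPM at 3 h in Cre-only cells (log2 fold change -0.56, edgeR adjusted p = 9.64e-05). The class I heavy chain H2-D1 fell (log2 fold change -0.94, edgeR adjusted p = 2.77e-05). Erap1, the peptidase that trims peptides after the proteasome, rose (log2 fold change 1.89, edgeR adjusted p = 1.89e-08), as did the chaperones Calr and Pdia3. The plot of genes around the proteasome gives all of them.

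**Figure D4:**
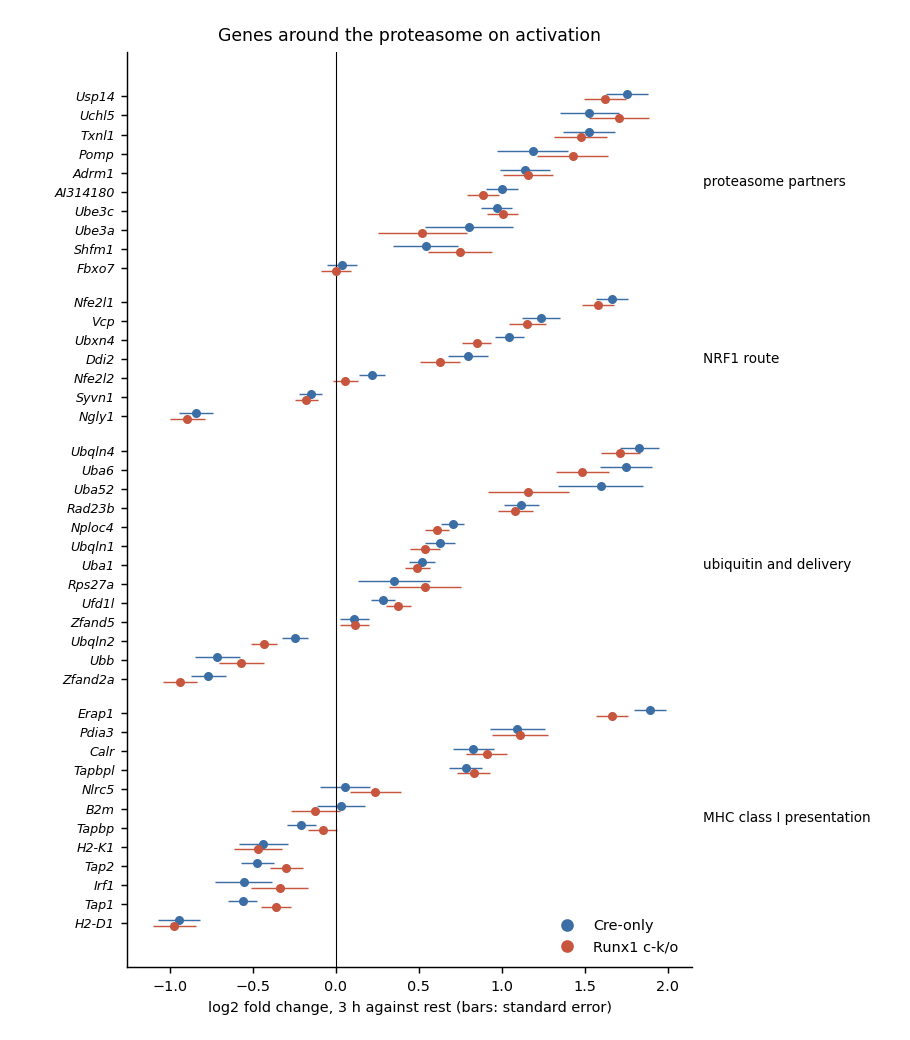
Log2 fold change from rest to 3 h (x axis) of the genes on these 4 lists (y axis) in Cre-only (blue) and Runx1 c-k/o cells (red); points are edgeR estimates and bars standard errors. Most proteasome partners lie right of 0, and Ubb, H2-D1 and Tap1 lie left of it.

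No proteasome gene passed the test for a difference between the genotypes at either time. At rest, 0 of the 45 were called (background: 1.49% of tested genes in either direction), 0 had an unadjusted p under 0.05 (11.1% of all) and DESeq2 called 0 (2.79%). At 3 h, 0 were called (background: 2.77%), 2 had an unadjusted p under 0.05, Psmg4 and Psme4 (16.2% of all), and DESeq2 called 0 (5.22%). The estimates leaned one way all the same: 44 of 45 were above 0 at rest and 44 of 45 at 3 h, beside 55.6% and 51.0% of all tested genes, with medians of 0.21 and 0.24 beside 0.03 and 0.01. In the fit without the libraries that stood apart, this lean was smaller: 25 of 45 estimates were above 0 at rest and 30 of 45 at 3 h, with medians of 0.01 and 0.03, and again 0 were called (4.35% and 6.65% of all genes). That fit left out the library of each Runx1 c-k/o group that was highest in nearly all of these genes. A smaller lean was therefore fixed in advance, and the fit does not test it.

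The levels given above show the same for single genes. Psmb5 was 25.4 ± 2.66 CPM (mean ± SD, n = 3) in resting Cre-only and 32.5 ± 9.14 CPM in resting Runx1 c-k/o cells, a log2 difference of 0.35 with an interval of ± 2 SE from -0.07 to 0.77 (edgeR adjusted p = 0.598). At 3 h the difference was 0.24 (edgeR adjusted p = 0.553), and without the libraries that stood apart it was 0.10 at rest and -0.01 at 3 h. For Psmb8 the differences were 0.16 and 0.24 (edgeR adjusted p = 0.689 and 0.404), for Psmb10 0.12 and 0.18, for Psme1 0.12 and 0.34 and for Psme3 0.11 and 0.02. The intervals of these 5 genes all included 0 at both times. The largest estimates at rest were those of the assembly chaperones Psmg3 (0.48), Psmg1 (0.46) and Psmg2 (0.43), none with an adjusted p under 0.551.

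**Figure D5:**
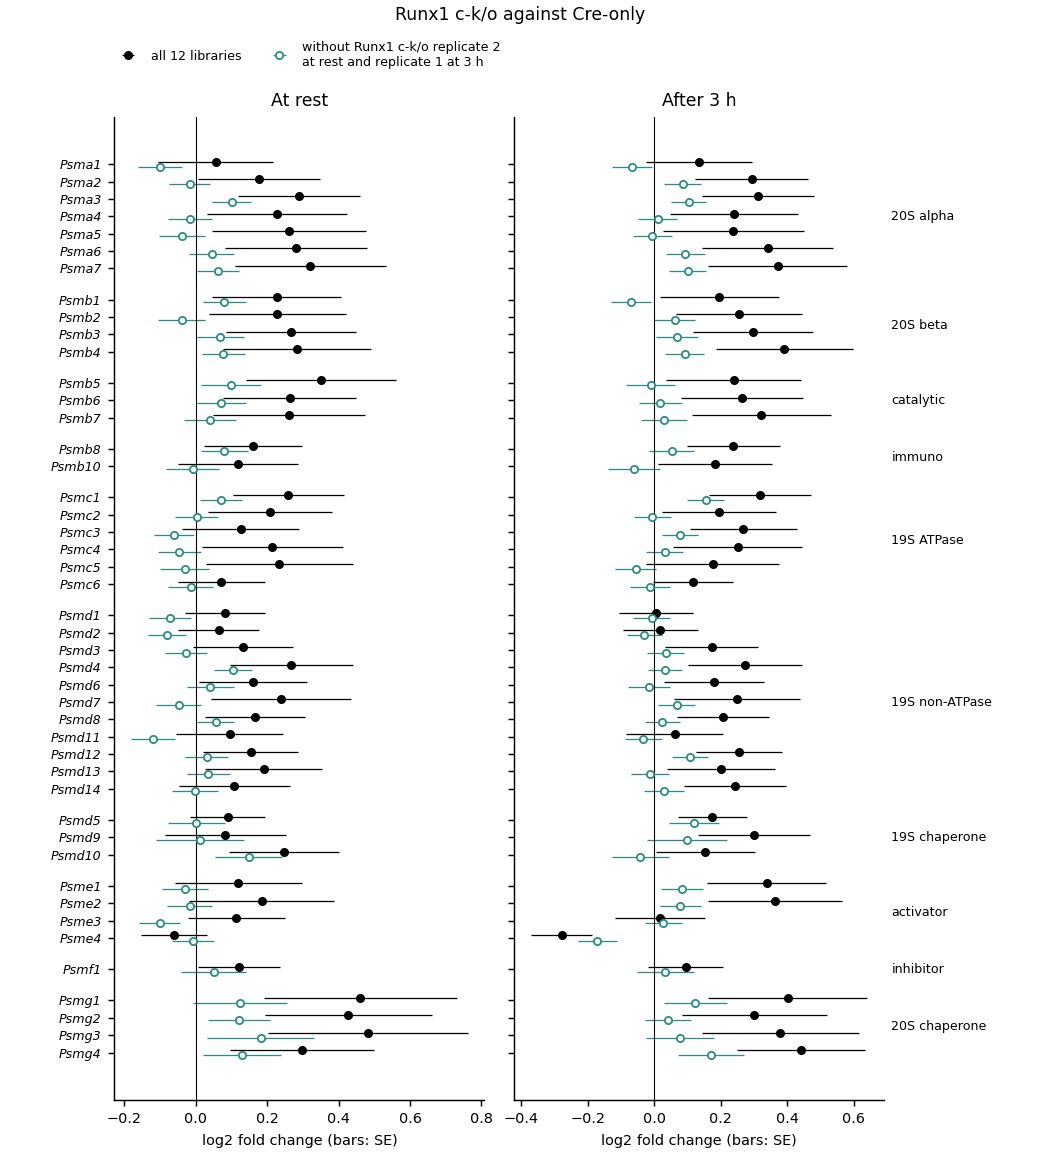
Log2 fold change between the genotypes, positive where Runx1 c-k/o was higher (x axis), at rest (left) and at 3 h (right) for the 45 tested proteasome genes by role (y axis), in the fit of all 12 libraries (black) and without the Runx1 c-k/o libraries that stood apart (green, open). Points are edgeR estimates and bars standard errors. The black points lie right of 0 but for Psme4, with medians of 0.21 and 0.24, and the green points scatter around 0, with medians of 0.01 and 0.03. The libraries left out were the highest of their groups in nearly all of these genes, so a shift to the left was fixed in advance.

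Psme4 was the exception to the lean. At 3 h its Runx1 c-k/o libraries (97.3, 111 and 124 CPM) all lay below the Cre-only libraries (131, 135 and 137 CPM), which held for 1 of the 45 proteasome genes and for 12.3% of all tested genes. The difference did not pass the test after adjustment (log2 fold change -0.28, SE 0.09, edgeR adjusted p = 0.16, unadjusted p = 0.0109). It passed with 1 RUVs factor in edgeR (log2 fold change -0.23, adjusted p = 0.0345, background: 4.29% called lower) and without Runx1 c-k/o replicate 3 at 3 h (-0.37, adjusted p = 0.0423). That replicate held the highest Psme4 level of its group, so a larger difference without it was fixed in advance. The difference did not pass in the fit without the libraries that stood apart (-0.17, adjusted p = 0.1). Above the Cre-only libraries without overlap lay 9 of 45 genes at rest (12% of all genes) and 10 at 3 h (9.5%), and 0 lay below at rest (11.6%). With 1 RUVs factor in DESeq2, 4 genes at 3 h were called higher, Psma3, Psmb4, Psmd12 and Psme1 (background: 5.2%), by 0.17 to 0.20 on the log2 scale, and 1, Psme4, lower (background: 3.92%).

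No proteasome gene passed the test for a difference between the genotypes in its change on activation. In this test of the interaction term, 0 of 45 were called (background: 0.0813%), 0 had an unadjusted p under 0.05 (5.07%) and DESeq2 called 0 (0.584%). The differences ranged from -0.22 (Psme4) to 0.22 (Psme1) with a median of 0.03, beside -0.04 over all tested genes. The median moved with single libraries: it was -0.15, with 2 of 45 estimates above 0, without replicate 1 of Runx1 c-k/o at 3 h, and 0.21, with 44 of 45 above 0, without replicate 2 at rest. Without both, the differences ranged from -0.19 (Psmd10) to 0.14 (Psmc3) with a median of 0.03 and 27 of 45 above 0, and the smallest edgeR adjusted p was 0.555. Psme4 was then at -0.16 and Psme1 at 0.11. The standard errors lay between 0.131 and 0.366 over all 12 libraries and between 0.0744 and 0.181 without both.

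Of the 5 genes whose symbol goes on after the number and that are not counted above, 2 had enough counts. Psmc3ip, a recombination factor named for binding Psmc3, rose (log2 fold change 1.74, edgeR adjusted p = 4.75e-06 in Cre-only cells). Psme2b-ps (chromosome 11, mm9 48758856 to 48759692), a single-exon gene that by its name is a copy of Psme2, stood at 22.0, 22.7 and 20.8 CPM at rest and 3.11, 1.37 and 2.55 CPM at 3 h in Cre-only cells, and at 18.3, 7.82 and 18.9 CPM and 1.87, 2.89 and 1.94 CPM in Runx1 c-k/o cells. It fell where Psme2 rose (log2 fold change -3.18, edgeR adjusted p = 2.98e-06 and log2 fold change -2.75, edgeR adjusted p = 1.44e-05). Reads can be shared between near-identical copies, so the levels of Psme2 and Psme2b-ps are uncertain by whatever the counting assigned to each.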

How the data were processed

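RNA was measured in 12 libraries of 4 groups with 3 replicates each. The authors lysed purified cells with ERCC spike-ins added, made stranded polyA libraries from 500 ng RNA, aligned reads with TopHat2 to mm9 and counted reads per Ensembl 66 gene with featureCounts. The deposited values are raw read counts, and the settings for strand, multi-mapped and overlapping reads are not given in the sources used here. Since counts are relative, a rise in some genes lowers the share of others.

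Counts were fitted in 1 model of the 4 groups over all 12 libraries with edgeR 4.0.16 (R 4.3.3), with TMM normalization and a robust quasi-likelihood fit. filterByExpr with a minimum count of 10 left 13538 of 37991 genes, and p-values were adjusted by Benjamini-Hochberg over all of them, with a threshold of 0.05. The comparisons were 3 h against rest in each genotype, Runx1 c-k/o against Cre-only at each time, and the interaction term. The intervals given are the estimate ± 2 SE. Per-kb levels used the length of all annotated exons of a gene, overlaps counted once, and not the length of the transcript made. The p-values set each difference against the spread between biological replicates, estimated over all 4 groups together and with no term for the replicate number. The spread of the Runx1 c-k/o libraries thus enters the Cre-only comparison. There the SE of Psmb1 was 0.18, and it was 0.047 in the fit of only the Cre-only groups. No permutation test was used, since 3 against 3 cannot go below 0.10.

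Alternatives were DESeq2 1.42.0, its size factors in edgeR, library size alone, no filter and at least 10 counts in every sample, only the groups compared, 1 RUVs factor (the methods name RUV-seq with DESeq2, without its settings), the replicate number as a block and each replicate left out. The fit without replicate 2 at rest and replicate 1 at 3 h of Runx1 c-k/o was added after the data were seen. These libraries were picked for their high proteasome levels, so lower estimates for Runx1 c-k/o against Cre-only were built into that fit. Smaller standard errors were built in too, since the libraries farthest from their replicates were left out. Same-numbered Cre-only libraries deviated together between the times (correlations 0.309, 0.211 and 0.175, beside -0.209 to -0.0105 for unlike numbers). The labels give only replicate numbers, so whether these libraries share mice is not known. The Runx1 c-k/o libraries (-0.324, -0.316 and 0.330) and the genotypes (-0.0911 to 0.102) showed no such pattern by number. The largest Runx1 c-k/o correlation, 0.551, was between the libraries that stood apart, so these values cannot show how the libraries were paired. No libraries of a group agreed within sampling noise.

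The genes and lists were chosen with earlier results of these data known. Named with full statistics were the catalytic subunits, the activator caps and the 5 genes with the smallest adjusted p per genotype. Other names are extremes, exceptions or examples chosen after their values were seen. Scripts were tested on simulated data. Of the lists of other pathway genes, 3 genes are not reported here and are left out of the counts.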

Additional observations from a re-analysis of the deposited data

How the results depend on the processing

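Activation. Leaving out each replicate in turn gave a median log2 fold change of the 45 proteasome genes of 1.07 to 1.14 in Cre-only cells (1.13 and 1.14 without resting replicate 1 or 2), with 39 higher and 2 lower in every such fit, and of 0.90 to 1.37 in Runx1 c-k/o cells, with 38 to 41 higher and 2 lower. Of the 13786 to 13865 genes tested in these fits, 9628 to 9697 were called in either direction in Cre-only cells and 9472 to 10203 in Runx1 c-k/o cells. The Cre-only median was 1.01 with DESeq2 and with its size factors in edgeR, 0.93 with at least 10 counts in every sample, 0.97 with library size alone, 1.024 with only the groups compared and 1.05 without both Runx1 c-k/o libraries that stood apart. With 1 RUVs factor the medians were 0.34 (Cre-only) and 0.37 (Runx1 c-k/o) in DESeq2 and 0.45 and 0.43 in edgeR, with 5 genes lower in each genotype and model, and Psme1 reversed to -0.60 and -0.39 in DESeq2 and -0.49 and -0.33 in edgeR. Why the RUVs values differ was not tested.

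Genotype. Leaving out each replicate gave medians of 0.0089 to 0.28 at rest and 0.033 to 0.37 at 3 h, with 0 genes called at rest, 0 higher at 3 h and 1 lower at 3 h (Psme4) without Runx1 c-k/o replicate 3. Of the 13786 to 13865 genes tested in these fits, 81 to 140 were called in either direction at rest and 180 to 617 at 3 h. At 3 h, 1 RUVs factor gave 4 higher and 1 lower in DESeq2 and 1 lower in edgeR. The interaction median ran from -0.15 (without Runx1 c-k/o replicate 1 at 3 h) to 0.21 (without replicate 2 at rest), with 0 called (4 to 31 of all tested genes). Small genotype estimates changed sign, none of them called. At rest, Psmb10, Psme1 and Psme3 were at -0.0091, -0.031 and -0.10 without both libraries that stood apart, and leaving out each replicate gave -0.015 to 0.19, -0.036 to 0.21 and -0.11 to 0.21, the lowest without replicate 2. With 1 RUVs factor Psmb10 and Psme1 were at -0.0062 and -0.019 in DESeq2 and at -0.00036 and -0.013 in edgeR. At 3 h, Psmb5 and Psmb10 were at -0.011 and -0.060 without both libraries, and leaving out each replicate gave -0.0098 to 0.37 and -0.057 to 0.33, the lowest without replicate 1. Psme3 was at -0.035 with 1 RUVs factor in edgeR, -0.016 with library size alone and -0.0095 to 0.058 with each replicate left out.

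With the replicate number as a block, 41 genes were called in Cre-only cells and 43 in Runx1 c-k/o cells, with medians of 1.10 and 1.16. Of all 13538 tested genes, 10036 and 9890 were called. Between genotypes 0 proteasome genes were called at rest, at 3 h or for the interaction, beside 140, 275 and 12 of all tested genes. The block within each genotype gave 41 and 40, beside 9736 and 9601 of all tested genes. In Cre-only cells the block ended 1 call, that of Psmd8 (0.33, adjusted p = 0.0577), and changed no other. Of the counts and medians under settings other than leaving out a replicate, 129 kept their direction and side of the threshold or moved by less than the spread, and 17 moved. Depth limits few of these genes, since the tested ones lie above the floor of 3 counts. The standard errors of the genotype differences lay between 0.0925 and 0.279 over all libraries and between 0.052 and 0.15 without both libraries that stood apart.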
